A study of Mus musculus with 25 samples.

Results

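The globins and 2 other genes of the red cell lineage were followed in RNA from mouse sperm after prenatal exposure to DEHP, a phthalate plasticiser. The 6 genes were taken by symbol: the adult alpha globins Hba-a1 and Hba-a2, the adult beta globins Hbb-bs and Hbb-bt, the haem synthesis enzyme gene Alas2, and Slc4a1, which encodes the red cell anion exchanger. Of these, 5 were matched among the 24358 genes of the table, 4 had a mean of at least 10 counts over the conditions, and Hbb-bt was not analysed here.

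The 5 conditions each combined 5 libraries, 25 in all, made by all-RNA-seq from cauda epididymis sperm of 14-week-old males. Vehicle C57BL/6J (labelled C57.CTL.F1) and vehicle FVB/N (FVB.CTL.F1) were sons of mothers of these inbred strains given corn oil by mouth. Exposed C57BL/6J (C57.D300.F1) and exposed FVB/N (FVB.D300.F1) were sons of mothers given DEHP in corn oil at 300 mg/kg/day from embryonic day 9 to 19. F2 C57BL/6J (C57.D300.F2) came from unexposed females mated with exposed C57BL/6J sons, and no vehicle F2 condition was analysed. The 10 libraries of vehicle and exposed C57BL/6J F1 are marked as a re-analysis in the labels, and the other 15 libraries were new. DEHP against vehicle therefore stays within 1 set of libraries in each strain. Any comparison of either of those C57BL/6J F1 conditions with F2 C57BL/6J or FVB/N joins generation or strain to the library set, and these cannot be told apart. F2 C57BL/6J against vehicle C57BL/6J differs in the DEHP exposure of the line as well.

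The deposited table gives 1 estimated fragment count per gene and condition, so no spread between mice can be computed and no p-value is given. The error shown is the SD of the count under the model of Cuffdiff, the program that made the table, and it is not a spread between libraries. A difference is said to exceed this error when it is larger than the SD of the difference of both counts. How many of all genes exceeded it was not counted, so exceeding it is a description and not a test. Log2 ratios were taken after adding 1 count, and folds are plain ratios of counts. A gene was counted as past the threshold when its ratio reached 2 log2 units and at least 1 of the conditions had 10 counts. The summed counts ran from 6921688 in F2 C57BL/6J to 8602900 in vehicle C57BL/6J. All 12 genes of a sperm marker list were above 3 counts in every condition, and their summed level was 11073.5 and 10326.4 CPM (counts per 1000000 of the condition's total) in vehicle C57BL/6J and exposed C57BL/6J, 4685.6 in F2 C57BL/6J, and 1090.0 and 1182.8 in vehicle FVB/N and exposed FVB/N.

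Haemoglobin carries oxygen as a tetramer of alpha and beta chains, each holding a haem. The alpha genes and the beta genes lie in separate clusters, and the erythroid programme turns on both clusters together with the haem pathway and the membrane proteins. Red cells of mammals lose their nucleus, yet young red cells still hold globin RNA in abundance. Mature sperm make little or no new RNA. In bulk RNA, fewer cells of a type and less RNA per cell cannot be told apart.

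Within each adult pair the coding sequences are nearly the same, and this limits what a count of 1 gene can mean. In GENCODE M21 on GRCm38, Hba-a1 lies at chr11:32283511-32284465 and Hba-a2 at chr11:32296489-32297298, both on the plus strand. Hbb-bs lies at chr7:103826534-103828096 and Hbb-bt at chr7:103812524-103813996, both on the minus strand, and each of the 4 has 3 exons. The coding sequences of Hba-a1 and Hba-a2, each of 426 bases, were 99.8% identical with 1 difference, C381T. Those of Hbb-bs and Hbb-bt, each of 441 bases, were 99.8% identical with 1 difference, C417T. Positions count from the A of the start codon, with the first-named gene's base written first. The stretches around these bases, coding bases 369 to 393 for alpha and 405 to 429 for beta, are shown with the differing base in capitals.
Hba-a1: tgcctctctggaCaaattccttgcc
Hba-a2: tgcctctctggaTaaattccttgcc
Hbb-bs: ggctggagtggcCgctgccctggct
Hbb-bt: ggctggagtggcTgctgccctggct
Over the longest annotated transcripts, 503 of the 537 windows of 18 bases in Hba-a2 (93.7%) also occurred in Hba-a1, and 423 of the 611 in Hbb-bs (69.2%) also occurred in Hbb-bt. Reads of 18 bases were the shortest kept. At 50 bases the shared portions were still 86.9% and 65.8%. Counted from the other copy, 73.8% of the 18-base windows of Hba-a1 and 61.7% of those of Hbb-bt were shared. The counts of Hba-a2 and Hbb-bs are accordingly uncertain as to gene, and are read here as counts of alpha and beta RNA.

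The start regions of 3 genes that were higher in the same comparison are shown for their shared short motifs. RefSeq's promoter table (GRCm38) held 5 of the 6 genes, all except Slc4a1. The 250 bases before the start site of Hba-a2 (chr11:32296242-32296491, plus strand), Hbb-bs (chr7:103827929-103828178, minus strand) and Alas2 (chrX:150547167-150547416, plus strand) follow, with capitals marking the GATA motif GATAA, the KLF motif CACCC, the CCAAT box and the TATA motif TATAA on either strand.
Hba-a2: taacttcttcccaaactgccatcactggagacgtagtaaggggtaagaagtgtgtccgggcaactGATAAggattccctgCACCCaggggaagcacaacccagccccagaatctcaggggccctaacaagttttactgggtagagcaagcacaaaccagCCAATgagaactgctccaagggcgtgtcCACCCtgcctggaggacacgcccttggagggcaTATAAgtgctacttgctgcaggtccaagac
Hbb-bs: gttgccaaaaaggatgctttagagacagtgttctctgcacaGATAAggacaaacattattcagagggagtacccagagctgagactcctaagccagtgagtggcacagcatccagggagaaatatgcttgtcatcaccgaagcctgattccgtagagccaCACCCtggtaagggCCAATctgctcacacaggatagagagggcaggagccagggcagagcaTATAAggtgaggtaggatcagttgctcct
Alas2: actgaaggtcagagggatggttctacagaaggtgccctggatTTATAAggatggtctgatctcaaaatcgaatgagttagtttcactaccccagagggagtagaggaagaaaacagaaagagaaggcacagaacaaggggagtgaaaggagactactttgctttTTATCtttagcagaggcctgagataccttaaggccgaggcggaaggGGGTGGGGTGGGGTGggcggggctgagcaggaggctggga
GATAA is the core read by GATA factors and CACCC that read by KLF factors. In Hba-a2, GATAA began at position -185, CACCC at -170 and -63, CCAAT at -91 and TATAA at -30 from the start site. In Hbb-bs they began at -209, -90, -76 and -29. Alas2 held GATAA in reverse as TTATC at -86 and CACCC in reverse as GGGTG at -40, -35 and -30, while its TATAA, at -207, overlapped the reverse TTATA at -208, and no CCAAT was found in this window. The Hba-a1 and Hbb-bt windows held all 4 motifs, and in Hbb-bt a CCAAT at -75 adjoined a reverse ATTGG at -80. Among 32851 promoter windows of 300 bases in the same table, which run 50 bases past the start, GATAA was found in 25.4%, CACCC in 57.5%, CCAAT in 37.4% and TATAA in 24.9%. These letters were chosen after the windows had been seen, and a match is a description and not a binding site.

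In FVB/N, all 4 genes with values were higher after DEHP, and the adult globins were about 5 times as high as with vehicle. In C57BL/6J F1 males the same 4 genes were split in sign, with 2 above 0 and 2 below, and each difference was within the model error. The sign of Hba-a2 there, at a log2 ratio of -0.03, turned to 0.12 when all conditions were scaled to equal totals. The 4 genes had a median log2 ratio of 2.10 in FVB/N, against 0.00 over all genes tested, and of 0.16 in C57BL/6J F1, against -0.01.

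Alpha globin RNA was recorded almost wholly under Hba-a2. The Hba-a1 count lay between 0.0023 and 0.0052 in the 5 conditions, far under the limit of 3 counts, so no fold is given for it. Hba-a2 had 423.2 ± 74.9 counts (model SD) in vehicle C57BL/6J, 414.4 ± 74.4 in exposed C57BL/6J, 917.7 ± 221.1 in F2 C57BL/6J, 411.1 ± 129.4 in vehicle FVB/N and 2212.6 ± 976.4 in exposed FVB/N. Vehicle C57BL/6J, exposed C57BL/6J and vehicle FVB/N were alike, the F2 males stood above them, and the exposed FVB/N males stood highest. Exposed FVB/N exceeded F2 C57BL/6J by 1294.9 counts, with an SD of the difference of 1001.1, and F2 C57BL/6J exceeded vehicle C57BL/6J by 494.5 with an SD of 233.5. The remaining neighbours in this order, vehicle C57BL/6J, exposed C57BL/6J and vehicle FVB/N, differed by 8.82 and 3.24 counts and were within the error.

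Beta globin RNA had the same order at its upper end but wider model errors. Hbb-bs had 572.7 ± 375.2 counts in vehicle C57BL/6J, 730.3 ± 239.3 in exposed C57BL/6J, 1447.8 ± 733.8 in F2 C57BL/6J, 453.3 ± 230.3 in vehicle FVB/N and 2275.8 ± 1311.2 in exposed FVB/N. No neighbouring pair in that order differed by more than its error. The model coefficient of variation of Hbb-bs was 0.655 in vehicle C57BL/6J, which was 2.74 times the median of the 200 genes nearest in count, and 1.36 to 2.15 times in the other conditions. For Hba-a2 that figure ran from 0.752 to 1.53 times.

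Alas2, the erythroid form of the enzyme that starts haem synthesis, did not keep the order of the globins. It lies at chrX:150547375-150570638 on the plus strand, with 11 exons. Its counts were 710.2 ± 208.4 in vehicle C57BL/6J, 531 ± 145.9 in exposed C57BL/6J, 432.9 ± 134.5 in F2 C57BL/6J, 191.9 ± 51.1 in vehicle FVB/N and 707.6 ± 223 in exposed FVB/N. The vehicle-treated FVB/N males were the low condition, 241.1 counts under the next, with an SD of 143.9. The exposed FVB/N males reached the level of vehicle C57BL/6J, from which they differed by 2.57 counts with an SD of 305.2.

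Slc4a1, whose product band 3 exchanges chloride for bicarbonate across the red cell membrane, was close to the limit of what could be measured. It lies at chr11:102348824-102366203 on the minus strand, with 20 exons. Its counts were 11.3 ± 5.2 in vehicle C57BL/6J, 19 ± 7.55 in exposed C57BL/6J, 21.8 ± 8.6 in F2 C57BL/6J, 7.16 ± 4.12 in vehicle FVB/N and 19.7 ± 7.85 in exposed FVB/N. No neighbours in this order differed beyond the error.

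**Figure D1:**
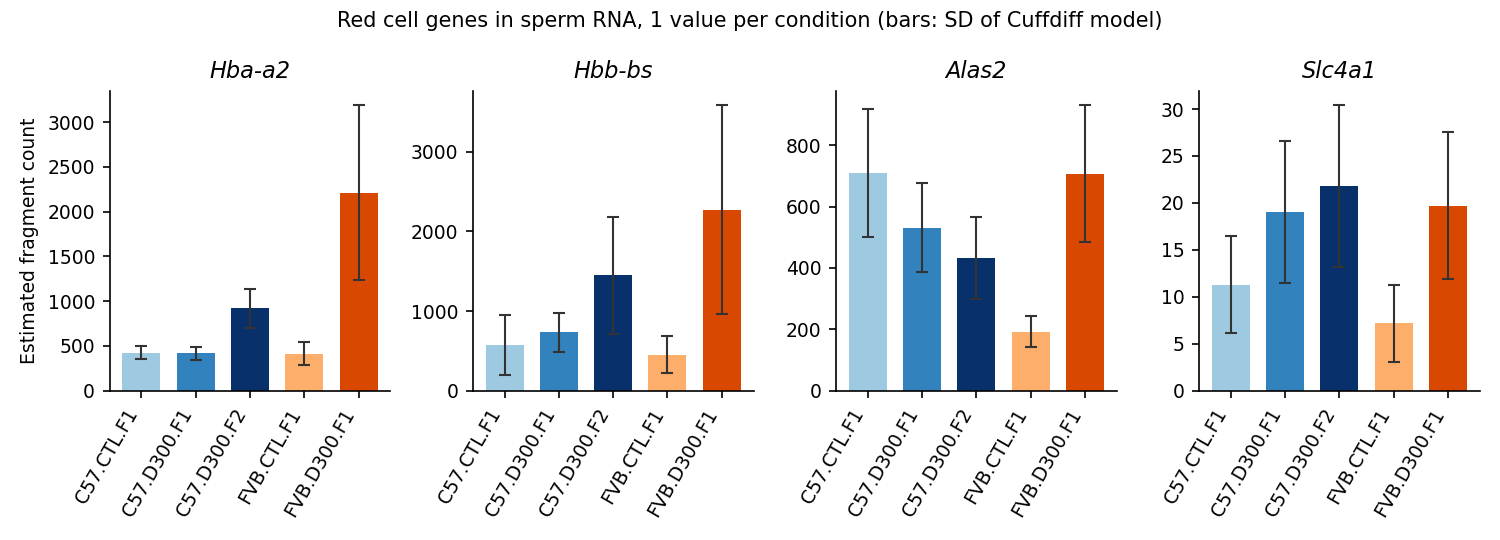
Estimated fragment counts (linear axes from 0, 1 scale per gene) of Hba-a2, Hbb-bs, Alas2 and Slc4a1 in the 5 conditions, with 1 bar per condition and whiskers of 1 model SD. Exposed FVB/N stands above vehicle FVB/N in every panel, and of the 4 only Alas2 is about as high in vehicle C57BL/6J (710.2 counts) as in exposed FVB/N (707.6).

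Prenatal DEHP in FVB/N was compared with its vehicle within the new libraries. Hba-a2 was 5.38-fold higher (log2 ratio 2.43, model SD 0.78), a difference of 1801.5 counts against an SD of 984.9. Hbb-bs was 5.02-fold higher (log2 ratio 2.33, model SD 1.11), a difference of 1822.6 counts against 1331.2. Alas2 was 3.69-fold higher (log2 ratio 1.88, model SD 0.59) and Slc4a1 2.76-fold higher (1.35, model SD 0.91), the latter from a difference of 12.6 counts. All 4 differences exceeded the model error, at 1.37 to 2.25 times it, and the share of all genes that did so was not counted. Past 2 log2 units were 2 of the 4 genes, both globins, where 0.662% of the 16471 genes tested were as much higher. Past 1 log2 unit were all 4, where 2.16% of all genes were. Slc4a1, which reached 10 counts only in exposed FVB/N, had a log2 ratio of 0.79 with 10 counts added and was then not past 1 log2 unit. Hba-a2 had 83 genes with a higher ratio, Hbb-bs 91, Alas2 123 and Slc4a1 201.

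The same exposure in C57BL/6J was compared within the re-analysed libraries. Hba-a2 was at 0.979 of its vehicle level (log2 ratio -0.03, model SD 0.36) and Hbb-bs at 1.28-fold (0.35, model SD 1.06). Alas2 had a log2 ratio of -0.42 (model SD 0.58) and Slc4a1 of 0.70 (model SD 0.82). None of the 4 was past 2 log2 units, where 0.291% of 16825 genes were in either direction, and none was past 1 log2 unit, where 2.24% were.

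The difference between the strains in the log2 ratio of DEHP over vehicle, FVB/N minus C57BL/6J, was 2.46 for Hba-a2, 1.98 for Hbb-bs, 2.30 for Alas2 and 0.64 for Slc4a1. Differences of 2 log2 units or more in either direction were found for 2 of the 4, against 1.22% of 17556 genes. With 1 value per condition this difference was not tested, and the strains also differ in their library set.

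Beta counts in the table were split over further symbols, which change the beta total. Hbb-b1 and Hbb-b2 are the names of the adult beta genes of another haplotype of laboratory mice, while C57BL/6J carries Hbb-bs and Hbb-bt. Hbb-b1 had 486.8, 178.1, 182.9, 200.8 and 890 counts in vehicle C57BL/6J, exposed C57BL/6J, F2 C57BL/6J, vehicle FVB/N and exposed FVB/N, and its model coefficient of variation was 0.761 to 1.52, which was 3.23 to 6.24 times that of genes of similar count. Hbb-b2 had 205.9, 154.4, 329, 161.2 and 867.6 counts in the same order. Both had counts in both strains, and both were highest in exposed FVB/N. After DEHP in FVB/N the log2 ratio was 2.14 for Hbb-b1 (model SD 1.75) and 2.42 for Hbb-b2 (0.64). The count difference was within the error for Hbb-b1, at 689.2 against an SD of 810.5, and exceeded it for Hbb-b2. In C57BL/6J F1 the ratios were -1.45 and -0.41, both within the error. Neither symbol was matched in GENCODE M21, so no position is given, and their length was taken as that of Hbb-bs. Reads shared among the beta symbols could be split between them, so each is uncertain on its own.

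Summed over Hba-a1, Hba-a2, Hbb-bs, Hbb-b1 and Hbb-b2, the adult globins had 1688.7 counts in vehicle C57BL/6J, 1477.2 in exposed C57BL/6J, 2877.4 in F2 C57BL/6J, 1226.3 in vehicle FVB/N and 6246.0 in exposed FVB/N. Against the condition totals these were 196.3, 190.6, 415.7, 162 and 754.5 CPM. The exposed FVB/N males were 5.09-fold above their vehicle condition (log2 ratio 2.35, model SD 0.56) and the exposed C57BL/6J F1 males were at 0.875 of theirs (-0.19, model SD 0.54). The sum differed from its neighbour beyond the error between exposed FVB/N and F2 C57BL/6J, and between F2 C57BL/6J and vehicle C57BL/6J.

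**Figure D2:**
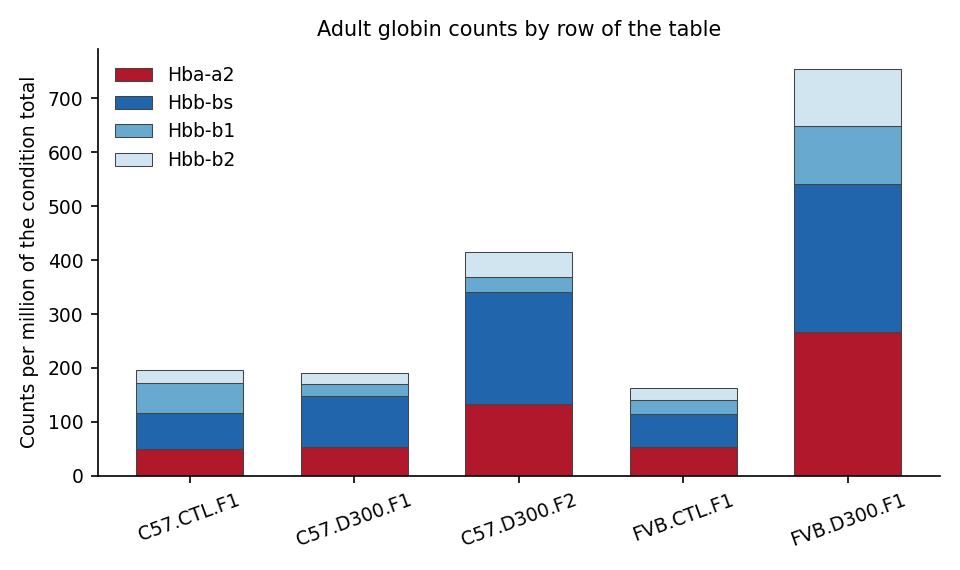
Adult globin levels in CPM (linear axis from 0), stacked by the symbol under which the table records them. Total height is 754.5 in exposed FVB/N and 415.7 in F2 C57BL/6J against 162 to 196.3 in the other conditions, and the Hbb-b1 layer takes a larger part in vehicle C57BL/6J than elsewhere.

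The balance of alpha to beta RNA was compared per kilobase, using transcript lengths of 554 bases for Hba-a2 and 628 for Hbb-bs. With all beta symbols summed, alpha over beta was 0.379 in vehicle C57BL/6J, 0.442 in exposed C57BL/6J, 0.531 in F2 C57BL/6J, 0.572 in vehicle FVB/N and 0.622 in exposed FVB/N. Alpha made up 25.1% of the adult globin counts in vehicle C57BL/6J (exact 95% binomial interval 23 to 27.2) and 28.1% in exposed C57BL/6J (25.8 to 30.4). It made up 31.9% in F2 C57BL/6J (30.2 to 33.6), 33.5% in vehicle FVB/N (30.9 to 36.2) and 35.4% in exposed FVB/N (34.2 to 36.6). These intervals take the estimated counts, rounded, as if they were plain fragment counts. They cover counting error only and leave out how shared reads were split between symbols. The intervals of the exposed and vehicle F1 conditions of each strain overlapped, although the globin total differed 5.09-fold in FVB/N. With Hbb-bs as the only beta symbol the ratio was 0.838, 0.643, 0.719, 1.03 and 1.1, and the order of the C57BL/6J conditions was no longer the same. The part of the beta counts under Hbb-b1 was 38.5%, 16.8%, 9.33%, 24.6% and 22.1% in the same 5 conditions.

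Globin RNA did not stay in a fixed ratio to the other 2 genes. Per kilobase, the adult globin level was 7.97 times that of Alas2 in vehicle C57BL/6J and 9.36 times in exposed C57BL/6J, then 22.5 times in F2 C57BL/6J, 21.7 times in vehicle FVB/N and 30 times in exposed FVB/N. The re-analysed libraries gave both low ratios. Over Slc4a1 the ratio was 1120.4, 583.8, 997.2, 1294.9 and 2398.1 in the same order, and rests on 7.16 to 21.8 counts of Slc4a1.

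The F2 males of the exposed C57BL/6J line had higher counts of Hba-a2 and Hbb-bs and lower Alas2 counts than both F1 conditions of their strain. Against vehicle C57BL/6J, the log2 ratio was 1.11 for Hba-a2 (model SD 0.43), 1.34 for Hbb-bs (1.19), -0.71 for Alas2 (0.62) and 0.89 for Slc4a1 (0.82), each just beyond the model error except Hba-a2, whose difference was 2.12 times it. None of the 4 was past 2 log2 units, where 4.19% of 17114 genes were in either direction. Hba-a2 and Hbb-bs were higher by 1 log2 unit, where 4.1% of genes were. For beta this rests on the Hbb-bs symbol, since Hbb-b1 had a log2 ratio of -1.41, the 3 beta symbols summed had 0.63, within the error, and all 5 adult globins had 0.77. Against exposed C57BL/6J, the sires' condition, the log2 ratios were 1.15 for Hba-a2, 0.99 for Hbb-bs, -0.29 for Alas2 and 0.19 for Slc4a1. Of these 4, Hba-a2 alone exceeded the error. Hbb-b2 had 1.09, the 3 beta symbols summed had 0.88 and all 5 adult globins had 0.96, each beyond the error, while Hbb-b1 had 0.04, within it. None of the 4 was past 2 log2 units, where 3.64% of 17133 genes were. Other markers also moved between vehicle and F2 C57BL/6J: the 10 liver genes summed to 272625.5 and 9272.8 counts, all 10 lower by 2 log2 units (3.61% of all genes were), and the 12 sperm genes to 95264.4 and 32432.3. Their part in the globin and Alas2 values was not tested. Both comparisons use the same F2 condition and cross the library sets, so generation and library set cannot be told apart. In the comparison with vehicle C57BL/6J, the DEHP exposure of the line cannot be told apart from them either.

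Between strains, the vehicle conditions differed beyond the model error in Alas2 but not in the globins. Vehicle FVB/N against vehicle C57BL/6J gave log2 ratios of -0.04 for Hba-a2 (0.14 when scaled to equal totals), -0.34 for Hbb-bs, -1.88 for Alas2 and -0.59 for Slc4a1, and Alas2 alone exceeded the error, at 2.42 times its SD. No gene of the 4 was past 2 log2 units, against 10.3% of 17086 genes, and 90.3% of genes had a higher ratio than Alas2. Between the exposed conditions, exposed FVB/N against exposed C57BL/6J, the ratios were 2.41, 1.64, 0.41 and 0.05 (the last -0.04 when scaled to equal totals), with 1 of 4, Hba-a2, past 2 log2 units, against 10.3% of 17377 genes (2.65% as much higher). Within the new libraries, vehicle FVB/N against F2 C57BL/6J gave -1.16, -1.67, -1.17 and -1.48, all beyond the error and none past 2 log2 units, against 3.21% of 16969 genes. That last comparison differs in strain, generation and exposure at once. The comparisons of the vehicle and of the exposed conditions cross the library sets, so strain and library set cannot be told apart in them.

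The rest of the red cell programme was described from 4 lists of haem synthesis, membrane and skeleton, erythroid factor, and enzyme and late erythroid genes. Of their 62 genes 61 were matched, and 51 could be tested in FVB/N. After DEHP in FVB/N, 1 of the 51 was higher by 2 log2 units (1.96%, against 0.662% of all genes) and none was lower by as much (0.0182% of all genes), and the median log2 ratio of the 51 genes with a mean of at least 10 counts was 0.03. In C57BL/6J F1, none of 49 was past 2 log2 units, where 0.291% of all genes were, and the median was -0.11.

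The 4 lists are read apart because many of their genes work in other cells too. Of the 12 haem synthesis genes none was past 2 log2 units in FVB/N after DEHP, and their median log2 ratio was 0.04. Of all genes only 0.662% were higher and 0.0182% lower by as much, so a list this short would seldom hold any. Alad, which makes porphobilinogen, was at 5813.6 counts with vehicle and 5888.1 after DEHP, and Alas1, the housekeeping counterpart of Alas2, had 361.6 and 312.9. None of the 15 membrane and skeleton genes tested was past the threshold, beside the same shares. The median was 0.00 over the 16 with a mean of at least 10 counts. Sptb, the red cell beta-spectrin, had 509 and 527.9 counts.

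None of the 9 erythroid factor and receptor genes tested was past 2 log2 units in FVB/N after DEHP, where 0.662% of all genes were as much higher. The median was 0.02 over the 8 with a mean of at least 10 counts. Gata1, which drives erythroid transcription, had 1.75, 4.9, 9.62, 9.82 and 11.6 counts in vehicle C57BL/6J, exposed C57BL/6J, F2 C57BL/6J, vehicle FVB/N and exposed FVB/N, and Klf1, which binds CACCC in the beta globin promoter, had 20.4, 17, 14.9, 12 and 13.5. Gata1 was highest in exposed FVB/N, but its mean of 7.53 was under 10 counts and its model SDs were 1.73 to 5.39, so its order is not read. Klf1 was highest in vehicle C57BL/6J, with model SDs of 5.58 to 8.4. Tfrc, the transferrin receptor that brings in iron, was at 1501.5 counts in vehicle FVB/N and 1227.8 in exposed FVB/N. Of the 15 enzyme and late erythroid genes tested, 1 was higher by 2 log2 units (0.662% of all genes were), and the median was 0.05. In F2 C57BL/6J against vehicle C57BL/6J, 1 of 50 genes of the 4 lists was higher by 2 log2 units (2%, against 0.584% of all genes). It was Add2, beta-adducin of the membrane skeleton, with 30.6 against 6.34 counts, and 2 of the 50 were lower by as much (against 3.61% of all genes). In vehicle FVB/N against vehicle C57BL/6J, 2 of 51 genes of the 4 lists were lower by 2 log2 units, where 8.88% of all genes were. They were Pklr, the pyruvate kinase of red cells and liver, with 35.8 against 247.2 counts, and Cat, catalase, with 218.4 against 4326.9. Both genes are also abundant in liver, and all 10 liver markers were lower by 2 log2 units in that comparison (8.88% of all genes were), at 3669.5 against 272625.5 counts in sum, whose part was not tested. In vehicle FVB/N against F2 C57BL/6J, 2 of 51 genes of the 4 lists were lower by 2 log2 units. Of all genes 3.21% were past 2 log2 units in either direction. Kel, the Kell blood group protein, was among the lower genes, with 6.06 against 29.6 counts. Its counts were 6.89 in exposed FVB/N, 19.4 in vehicle C57BL/6J and 19.9 in exposed C57BL/6J.

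The embryonic and theta globins stayed at the floor. Hba-x, Hbq1a, Hbq1b, Hbb-bh1, Hbb-bh2 and Hbb-y all had under 3 counts in every condition. Of the globins of other tissues, Cygb and Mb were measurable and did not follow the adult pairs. Cygb, cytoglobin of fibroblast-like cells, had 180.2, 263.2, 278, 178 and 112.4 counts in vehicle C57BL/6J, exposed C57BL/6J, F2 C57BL/6J, vehicle FVB/N and exposed FVB/N, and was lowest where the adult globins were highest. Mb, myoglobin of muscle, had 54.4, 120.4, 98.6, 74.5 and 67.7. Ngb, neuroglobin, had 3.24 to 6.13, under 10 counts in every condition, so its order is not read.

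**Figure D3:**
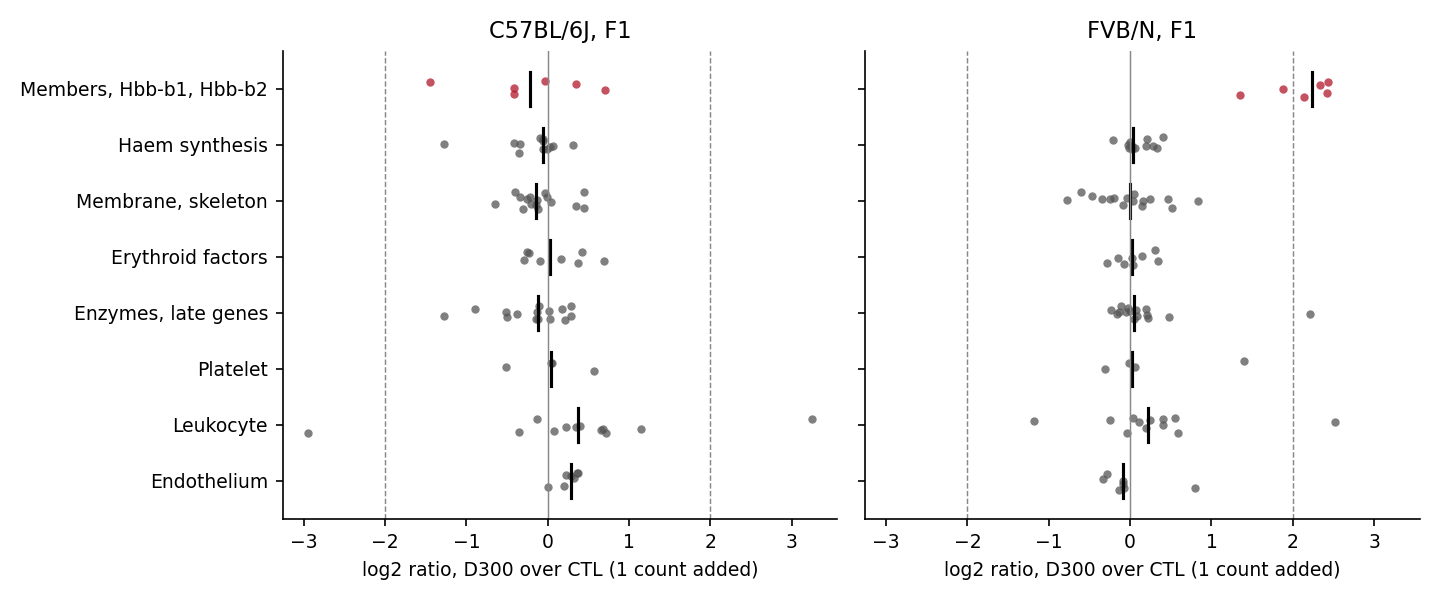
Log2 ratio of DEHP (D300) over vehicle (CTL), with 1 count added, for the 4 genes and Hbb-b1 and Hbb-b2 (red) and for genes of the red cell, platelet, leukocyte and endothelium lists with a mean of at least 10 counts (grey), in C57BL/6J F1 (left) and FVB/N F1 (right). Black ticks are medians and dashed lines mark 2 log2 units. The red points lie from 1.35 to 2.43 in FVB/N and on both sides of 0 in C57BL/6J, while the list medians lie near 0 in both.

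Markers of other cells were read beside the globins in FVB/N. Of 9 platelet genes, all were above 3 counts in both conditions and their sum was 332.4 counts with vehicle and 353.1 with DEHP. None of the 6 tested was past 2 log2 units, where 0.662% of all genes were as much higher. Higher by 1 log2 unit were 2 of the 6, where 2.16% of all genes were. These were Ppbp at 21.6 and 58.9 counts and Gp9 at 5.17 and 17.3, and Gp9 reached 10 counts only in exposed FVB/N. Pf4, another platelet chemokine, had 48.7 and 48.3. The 12 leukocyte genes summed to 2032.7 and 2296.8 counts, with 1 of 10 tested higher by 2 log2 units (0.662% of all genes were). It was S100a9 at 3.36 and 24.1 counts, which reached 10 counts only in exposed FVB/N, while its partner S100a8 had 135.3 and 59.2. The 7 endothelium genes summed to 883.1 and 840, and the 10 liver genes to 3669.5 and 3120.8. Of the 9 genes that clear haemoglobin and haem none was past 2 log2 units, where 0.662% of all genes were higher and 0.0182% lower by as much. Their median was -0.32, and Hp, haptoglobin, had 109.3 and 94.3 counts. None of these sums was higher by as much as the globins.

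The epididymis list did move with the globins in FVB/N. Of its 10 genes Crisp1, an abundant secreted protein of the epididymis, had 108274.0 counts in vehicle C57BL/6J and 219328.0 in exposed FVB/N, each with a model SD above the count, and failed estimates in the other 3 conditions, so it is left out of the sums. The other 9 genes summed to 281.4, 265.4, 249.2, 168.8 and 39592.4 counts in vehicle C57BL/6J, exposed C57BL/6J, F2 C57BL/6J, vehicle FVB/N and exposed FVB/N, with 3 of 9 at or under 3 counts in vehicle FVB/N and none in exposed FVB/N. Gpx5, an epididymal glutathione peroxidase, had 71.4 counts in vehicle FVB/N and 24121.2 in exposed FVB/N. Under 10 counts with vehicle were 5 of the 9, which could be compared only through the exposed condition, and the study singled out several of these genes on these samples, so the list is not independent evidence. In F2 C57BL/6J, where the globin sum was 2877.4 counts, the epididymis sum lay under that of vehicle C57BL/6J in counts and over it in CPM (36 and 32.7). In C57BL/6J the 8 seminal vesicle genes summed to 236221.3 counts in vehicle C57BL/6J and 1146.2 in exposed C57BL/6J, all 8 lower by 2 log2 units (0.256% of all genes were), across which the globin sum was 1688.7 and 1477.2. What part these tissues' RNA had in the globin counts was not tested.

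**Figure D4:**
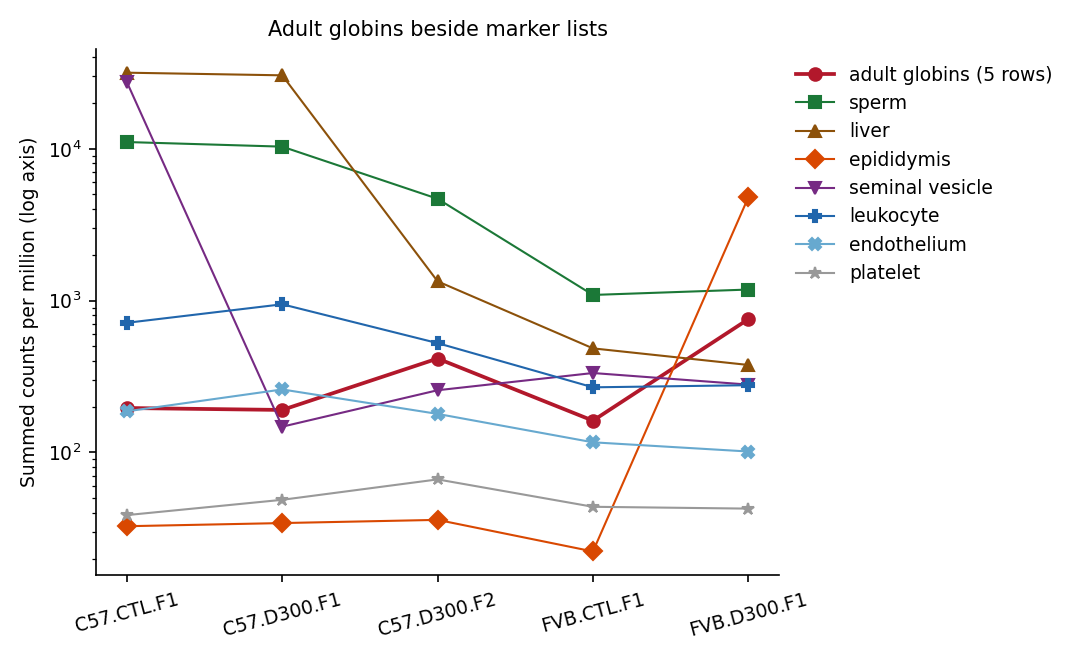
Levels in CPM (log axis) summed for the adult globins and for 7 marker lists in the 5 conditions, which are joined by lines for reading and have no order. In exposed FVB/N the globins (754.5) and the epididymis list (4782.6) stand above vehicle FVB/N (162 and 22.3), and in F2 C57BL/6J the globins (415.7) stand above vehicle C57BL/6J (196.3) and the epididymis list, drawn without Crisp1, is at 36 and 32.7.

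Genes with the pattern most like the sum of Hba-a1, Hba-a2 and Hbb-bs over the 5 conditions were found among 11235 genes by the root mean square distance of their log2 levels, each centred on its own mean. Hbb-b2, another adult beta symbol that is not in that sum, was nearest at 0.26 log2 units. Shared reads could be split between Hbb-b2 and Hbb-bs, which is in the sum, so this likeness is not independent. After Hbb-b2 came Srd5a2, the steroid 5-alpha-reductase that makes dihydrotestosterone, at 0.40, Scube1 and Fign at 0.46, Nptx1 at 0.47, and Mbnl3, Defb42 and Alpl at 0.48. Defb42, a beta-defensin, had 139.9, 113.1, 309.4, 87.5 and 1130.2 counts in the conditions as ordered above. Alpl, the tissue-nonspecific alkaline phosphatase, had 92.1, 105.6, 98.5, 92.8 and 315.8. The distance was 0.63 for Slc4a1 and 0.84 for Alas2, so both lay farther from the globin pattern than these 8 genes. All these likenesses rest on 5 points and largely on the 1 high condition.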

How the data were processed

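Sperm RNA of 25 mouse libraries was ribosome-depleted, fragmented and sequenced strand-specifically. The authors demultiplexed reads with CASAVA 1.8.2, kept reads of at least 18 bases, mapped them to mm10 with TopHat and quantified genes with Cuffdiff. Versions of the last 2 and the annotation release are not given in the sources used here. The deposited values are a signal, 1 estimated fragment count per gene and condition, scaled between libraries and not divided by length. The deposited variance of each count gave the model SD. Failed estimates (71 genes) were treated as missing.

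From these, log2 ratios were taken with 1 count added in Python 3.11.15 (numpy 2.4.6, pandas 2.3.3, scipy 1.17.1, matplotlib 3.10.9), requiring 10 counts in 1 of the conditions compared, in 7 comparisons. The script was tested on simulated data. Without values of single libraries no test between conditions was run. Medians used genes with a mean of at least 10 counts. Lengths and positions came from GENCODE M21 (GRCm38). Summed counts per condition were 6921688 to 8602900, and depth per library is unknown.

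The text names every member, all other globin genes, and from each list up to 3 genes of highest mean, any red cell gene past 2 log2 units in the globins' direction, and the 8 genes most alike. Gata1, Klf1, Pf4, Ppbp, Gp9, S100a8, S100a9 and Hp were added after their values were seen, and 1 gene that the rule selects is not reported here. The members and lists were chosen with earlier results of these data known. The alternatives were pseudocounts, count minimum, threshold, scaling, transcript length and summing of gene copies.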

Additional observations from a re-analysis of the deposited data

Results flagged for a closer look

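The response to DEHP against vehicle had ratios of opposite sign in the 2 strains and differed by at least 2 log2 units for 4 genes, where 1.22% of 17556 genes differed by as much in either direction. The difference, FVB/N minus C57BL/6J, was 2.46 for Hba-a2, 2.30 for Alas2, 3.59 for Hbb-b1 and 2.83 for Hbb-b2. With 1 value per condition the difference was not tested. For Hba-a2 the C57BL/6J ratio lay so near 0 (-0.03) that its sign changed to 0.12 with equal totals. In C57BL/6J all 4 ratios lay within the model error, so their signs there are not established. For Hbb-b1 the count difference in FVB/N was within the error too.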

How the results depend on the processing

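No paired analysis was possible because the table holds 1 value per condition, and for the same reason no replicate could be left out. All 210 alternative values of single-gene log2 ratios, and 55 of 56 of the medians over the 4 genes, moved by less than their limits (1 model SD and 0.5 log2 units). The exception was exposed FVB/N against exposed C57BL/6J, whose median of 1.03 was 1.64 without Slc4a1. Of single genes, Slc4a1 in FVB/N went from 1.35 to 0.79 with a pseudocount of 10. Scaling to equal totals took the median log2 ratio of all genes from -0.04 to 0.28 in F2 C57BL/6J against vehicle C57BL/6J, and from 0.00 to -0.13 in FVB/N after DEHP. With Hbb-bs as the only beta symbol, chosen after seeing the data, alpha over beta per kilobase was 0.838 in vehicle C57BL/6J, 0.643 in exposed C57BL/6J and 1.03 in vehicle FVB/N.

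The count of all genes past the threshold moved by more than 1.5 times under 3 settings. With a threshold of 1 log2 unit it went from 49 to 377 in exposed C57BL/6J against vehicle C57BL/6J, from 112 to 457 in exposed FVB/N against vehicle FVB/N, from 717 to 2441 in F2 C57BL/6J against vehicle C57BL/6J, from 623 to 1891 in F2 C57BL/6J against exposed C57BL/6J, from 1764 to 4489 in vehicle FVB/N against vehicle C57BL/6J, from 1792 to 5548 in exposed FVB/N against exposed C57BL/6J, and from 544 to 2677 in vehicle FVB/N against F2 C57BL/6J. With a minimum of 100 counts, which tests fewer genes, 5 of these comparisons gave 30, 74, 1039, 1069 and 242 in the order above, leaving out those of F2 C57BL/6J against either F1 condition. With a pseudocount of 10, 31 genes were left in exposed C57BL/6J against vehicle C57BL/6J, 1100 in vehicle FVB/N against vehicle C57BL/6J, 1073 in exposed FVB/N against exposed C57BL/6J and 219 in vehicle FVB/N against F2 C57BL/6J. Slc4a1, at 7.16 to 21.8 counts, is limited by depth.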
